A study of Mus musculus with 4 samples.

Results

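The folding machinery of the endoplasmic reticulum (ER) was followed here through 10 genes, listed by name for their known role: the Hsp70 chaperone Hspa5 with its partners Hyou1 and Dnajc3, the Hsp90 chaperone Hsp90b1, the lectin chaperones Calr and Canx, and the protein disulfide isomerases P4hb, Pdia3, Pdia4 and Pdia6. Each matched 1 of the 55357 gene identifiers in the count table, and all 10 were among the 17422 genes that passed the filter on low counts. The RNA came from testis cells of C57BL/6 mice aged 7 days, with no allele or agent named in the labels. Cells were exposed to 254 nm ultraviolet light (200 mJ per square cm), which links RNA to bound protein, and lysed. Input libraries (n = 2) hold RNA from 10% of the total, with no antibody, and RIP libraries (n = 2) hold RNA precipitated with an antibody against DDX20, a DEAD-box RNA helicase of the SMN complex. As labelled, the antibody's catalogue number is not the same in both RIP libraries (1 character differs). Nothing in the labels tells whether replicates were separate cell preparations, and the p-values then describe only the spread between these libraries, which may be technical. No precipitation with a control antibody was used here, so a higher value is a difference in scaled counts between RIP and input and does not show binding by DDX20.

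Proteins that enter the secretory pathway fold inside the ER. Hspa5, also called BiP, holds unfolded chains, and is driven by J-domain partners such as Dnajc3 and by nucleotide exchange factors such as Hyou1. Calnexin (Canx, anchored in the membrane) and calreticulin (Calr, soluble) hold chains that carry N-linked sugars, and the disulfide isomerases make and rearrange disulfide bonds. When unfolded protein accumulates, the sensors ATF6, IRE1 and PERK raise transcription of these chaperones, in part through the ER stress response element (ERSE) in their promoters. Most of the soluble members are kept in the ER by a retrieval signal at the carboxyl end, of which KDEL is the best known form.

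The ERSE is shown because it is already known from promoters of ER chaperones, so the counts below describe the set and are not a new finding. Its letters, CCAAT and then, after 9 bases of any kind, CCACG, were searched on both strands of RefSeq promoter windows (GRCm38.p6, 250 bases before to 50 after the start). Of the 10 genes 9 had a window in that table (Hyou1 did not), and 6 of the 9 held the element, against 39 of all 32851 windows (0.119%). Each stretch is given in the direction of its gene, with 5 flanking bases, and capitals mark the fixed letters of the element, which read CGTGG and ATTGG where it lies on the other strand.
Hspa5, chr2:34772020-34772048, plus strand: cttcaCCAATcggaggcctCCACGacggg
Dnajc3, chr14:118937822-118937850, plus strand: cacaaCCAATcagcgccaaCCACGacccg
Hsp90b1, chr10:86705633-86705661, minus strand: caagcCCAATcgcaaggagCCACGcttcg
Hsp90b1, chr10:86705528-86705556, minus strand: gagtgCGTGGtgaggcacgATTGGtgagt
Calr, chr8:84847070-84847098, minus strand: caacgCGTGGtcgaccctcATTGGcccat
Canx, chr11:50325795-50325823, minus strand: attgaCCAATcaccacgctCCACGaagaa
Pdia6, chr12:17266486-17266514, plus strand: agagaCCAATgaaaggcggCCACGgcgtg
The stretch of Hspa5 lies inside the GENCODE gene model, which starts upstream of the RefSeq start, at 34771970. With the last letter of CCACG left free, Pdia3 and Pdia4 also held the element (8 of 9, against 0.365% of all windows), and P4hb did not. The 6 genes with the exact element had log2 fold changes (RIP over input) from 0.13 to 1.07 and the 3 without it from 0.53 to 1.06. A match is a description of letters and not a site shown to be bound.

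The ends of the coding sequences show how the members differ in the signal that holds them in the ER. The last 30 coding bases before the stop codon (GENCODE M21 transcripts, GRCm38) are given for 5 members, with the last 4 codons in capitals.
Hspa5: gaagaggatacatcagaaAAAGATGAGTTG
Calr: gaatcccctggccaagccAAGGATGAGCTG
Pdia3: aagaagaagaagaaggcaCAAGAGGACCTC
Canx: tcgccaagaaacagaaagCCACGAAGAGAG
Dnajc3: ggaccgttcagatttaagTTCCACTTCAAT
In Hspa5, Hsp90b1, Calr, P4hb and Pdia6 these codons spell KDEL, in 5 different spellings, and their log2 fold changes ran from 0.13 to 1.07. The other 5 members, whose ends encode other residues, ran from 0.50 to 1.51, so the range of each class covered much of the other. The ends of Hyou1 (NDEL), Pdia4 (KEEL) and Pdia3 (QEDL) resemble KDEL, so the second class does not stand for lack of a signal.

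After trimmed-mean (TMM) scaling, messages of all 10 folding genes were higher in the DDX20 precipitate than in the input. Each rose by the quasi-likelihood test of edgeR (adjusted p of 2.87e-05 for Calr and lower for the other 9). The p-values were adjusted over all genes by the Benjamini-Hochberg method. Of all genes tested 77.3% passed the test, 38.7% higher and 38.6% lower. The median log2 fold change of the 10 was 0.85, against -0.05 over all genes tested. Together the members held 0.504% ± 0.0047 of all counts in the input and 0.660% ± 0.0039 in RIP (mean ± SD, n = 2 libraries per group). By total counts alone 9 of the 10 were called higher and Calr lower, against 28.7% of all genes higher and 50.8% lower. Calr took 0.0634% and 0.0635% of all counts in the input and 0.0544% and 0.0545% in RIP. Counts summed to between 21416567 and 21913977 in the input libraries and between 37927689 and 38458014 in the RIP libraries.

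**Figure D1:**
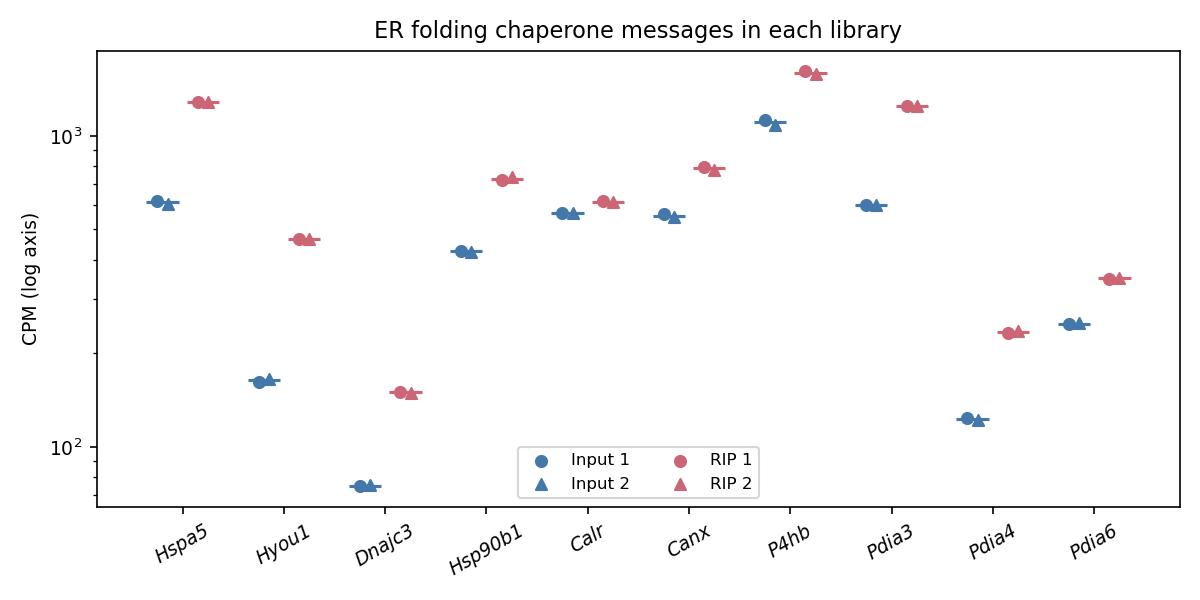
Counts per 1000000 counts after TMM scaling (CPM, log axis) of each gene in each library, with circles for replicate 1, triangles for replicate 2 and bars for the group means. The RIP means lie above the input means, on the log axis by the least in Calr and by the most in Hyou1.

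Within the Hsp70 system the gap between groups was widest for Hyou1. Hyou1 (chr9:44379490-44392369), the large exchange factor also called GRP170, stood at 162 and 165 CPM in the input libraries and at 468 and 465 CPM in RIP. Its 2.85-fold rise (log2 fold change 1.51 ± 0.0296, SE, n = 2 per group) was above those of 93.6% of all genes tested. Hspa5 (chr2:34771970-34777547) stood at 619 and 605 CPM in the input and at 1288 CPM in each RIP library, a log2 fold change of 1.07 ± 0.0234. Dnajc3 (chr14:118937976-118981697), the J-domain partner also known as P58IPK, was the least abundant member, with 75.1 and 75.4 CPM in the input and 151 and 149 CPM in RIP. The replicates of these 3 genes lay within a few percent of each other while the groups stood about 2-fold to 2.85-fold apart, and the log2 fold change of Dnajc3 was 1.00 ± 0.0403.

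Hsp90b1 (chr10:86690209-86705509), also called GRP94, is the ER member of the Hsp90 family and serves a narrower set of clients that includes integrins and Toll-like receptors. It stood at 428 and 424 CPM in the input and at 723 and 735 CPM in RIP, which is a log2 fold change of 0.78 ± 0.0252. Its rise was smaller than that of Pdia4, the next gene above it in the order of fold changes (difference 0.15 ± 0.0425, SE), and larger than that of P4hb, the next below (0.25 ± 0.0340).

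The lectin chaperones, which share one sugar-binding fold, sat low in the order. Calr (chr8:84841850-84846934) was at 563 CPM in both input libraries and at 618 and 611 CPM in RIP, a difference of 1.09-fold (log2 fold change 0.13 ± 0.0247). Canx (chr11:50293961-50325673) was at 560.2 and 549 CPM in the input and at 796 and 775 CPM in RIP, with a log2 fold change of 0.50 ± 0.0249. The direction of Calr depended on the scaling between libraries. These values use TMM scaling, and under 3 alternatives Calr was the 1 member called lower in RIP and the other 9 were called higher. Its log2 fold change was then -0.22 by total counts alone (28.7% of all genes higher, 50.8% lower) and -0.22 by upper-quartile scaling (28.8% and 50.5%). It was -0.19 with TMM estimated on genes of at least 10 CPM in 2 libraries (44.9% and 44.6%). Total counts and upper-quartile scaling moved the median of all genes from -0.05 to -0.40 and -0.39, and relative to that median Calr stood 0.18 higher under both, as it did under TMM. In the fit on genes of at least 10 CPM it stood at -0.20 relative to the median of those genes.

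The disulfide isomerases spanned a similar range. P4hb (chr11:120560298-120573253), which is also the beta subunit of the collagen prolyl 4-hydroxylases, was the most abundant member, at 1125 and 1086 CPM in the input and 1609 and 1577 CPM in RIP (log2 fold change 0.53 ± 0.0229). Pdia3 (chr2:121413775-121438687), also called ERp57, works with Calr and Canx on glycoproteins. It stood at 598 CPM in both input libraries and at 1242 and 1248 CPM in RIP, a log2 fold change of 1.06 ± 0.0232, whereas that of Calr, its partner, was 0.13. Pdia4 (chr6:47796141-47813430), or ERp72, went from 124 and 122 CPM to 232 and 235 CPM (log2 fold change 0.92 ± 0.0343). Pdia6 (chr12:17266545-17284770), or P5, is a partner of Hspa5 and went from 249 and 249.7 CPM to 347 and 349.8 CPM (0.48 ± 0.0288). Pdia3 and Pdia4 thus lay in the upper group of members and P4hb and Pdia6 in the lower one.

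In order of log2 fold change the members ran Hyou1, Hspa5, Pdia3, Dnajc3, Pdia4, Hsp90b1, P4hb, Canx, Pdia6 and Calr. Neighbours from Hspa5 to Pdia4 differed by 0.016 to 0.073, and P4hb, Canx and Pdia6 by 0.021 to 0.024, all within the 95% limits of the difference. Hyou1 stood 0.44 above Hspa5, and Pdia6 stood 0.36 above Calr, both beyond those limits. At least 2-fold rises were seen in 3 members (Hyou1, Hspa5 and Pdia3), against 17.1% of all genes tested. In a test against a change of 1.5-fold, 6 members passed as higher, against 24.2% of all genes (25.4% passed as lower), and Calr, Canx, P4hb and Pdia6 did not pass.

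The unequal rises changed the make-up of the set. On a scale of counts per kilobase of exon (each library scaled to the same sum over the genes tested), P4hb led in the input at 1146 ± 30.4 (SD, n = 2), followed by Calr at 579.9 ± 1.07 and Pdia3 at 565 ± 1.19. In RIP P4hb still led at 2088 ± 20.98, but Pdia3 (1487 ± 11.1) and Hspa5 (1142 ± 4.35) both stood above Calr (799.99 ± 3.90). Dnajc3 and Hyou1 were lowest in both groups on this scale. Neighbours in these orders did not overlap between libraries, although Canx and Hsp90b1 in the input, and Pdia4, Pdia6 and Hyou1 in RIP, changed places when message length was used in place of exonic length. As a share of all member counts, Calr went from 12.6% ± 0.129 to 8.24% ± 0.0412 and Hyou1 from 3.66% ± 0.0916 to 6.26% ± 0.00041.

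Fold change followed the length of the coding sequence across all genes, and the members lay on or above that trend. Spearman's rho between coding length and log2 fold change was 0.637 over 14686 genes and 0.636 over the 10 members. These points are genes of the same 4 libraries and not independent replicates, and the values are descriptions. Calr has the shortest coding sequence of the 10 (1248 nt) and the smallest fold change, and Hyou1 has the longest (2997 nt) and the greatest. The median coding length was 1650 nt over the members and 1374 nt over all genes with a coding sequence. The GC content of the coding sequence had a rho of -0.018 over the members and 0.035 over all genes. Message length had a rho of 0.576 over the members and 0.582 over all genes. For the number of exons the values were 0.189 and 0.484, and for the length of the 3' untranslated region 0.382 and 0.266.

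**Figure D2:**
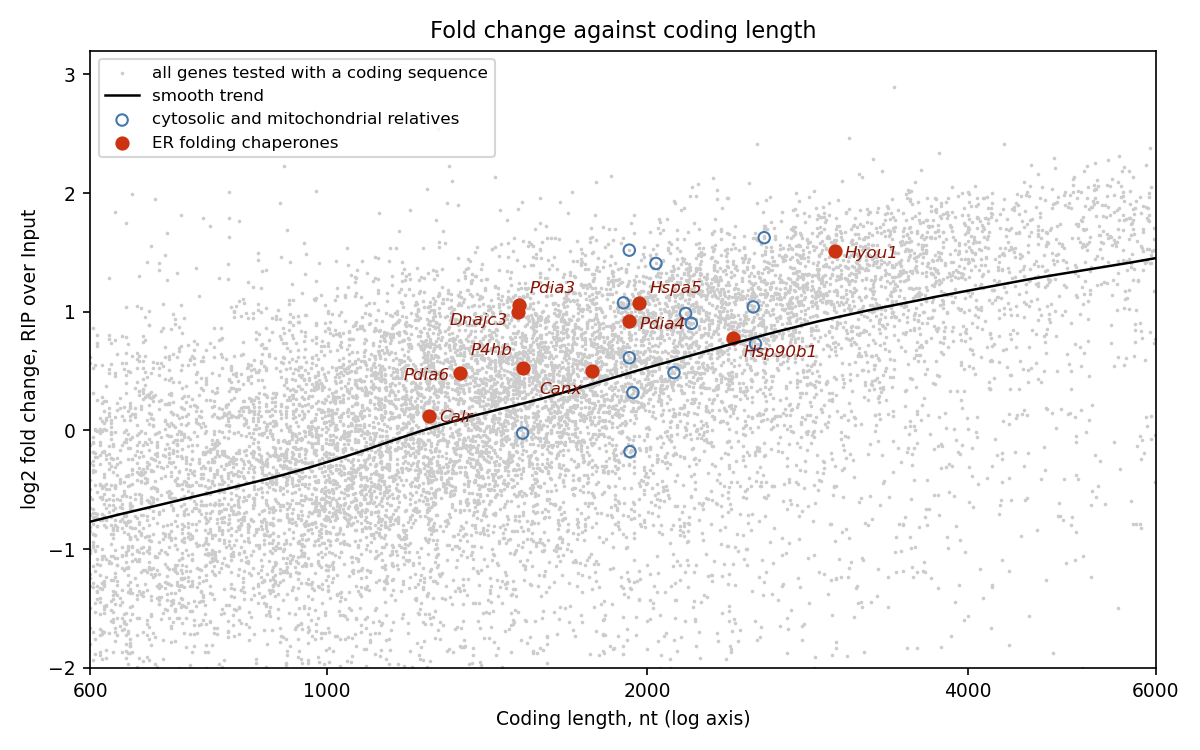
Log2 fold change (RIP over input) against coding length in nt (log axis), for genes within the plotted range (grey), the 10 ER folding genes (red) and their cytosolic and mitochondrial relatives (open circles), with the smooth trend over all genes (line). The red points lie on or above the line, from Hsp90b1 at 0.043 above it to Pdia3 at 0.84 above it.

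Measured from that trend, the order of the members changed. Pdia3 stood 0.84 above it, Dnajc3 0.78, Hspa5 and Hyou1 0.56 each, Pdia4 0.44, Pdia6 0.39 and P4hb 0.30, whereas Canx and Calr stood 0.11 above it and Hsp90b1 0.043. In a fit with the trend as an offset, 7 members rose (32.1% of genes did so in that fit, and 41.1% fell), Hsp90b1 was called lower at -0.09 ± 0.0237 (SE), and Calr (-0.027) and Canx (-0.023) did not pass the test. Scaling factors in that fit were estimated over genes with a coding sequence only, which lowered the log2 fold change of each member by 0.135. Relative to the median of all genes in that fit, -0.11, Hsp90b1 stood 0.02 higher. With an offset for exonic length all 10 members rose, against 37.6% of genes higher and 32.3% lower.

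**Figure D3:**
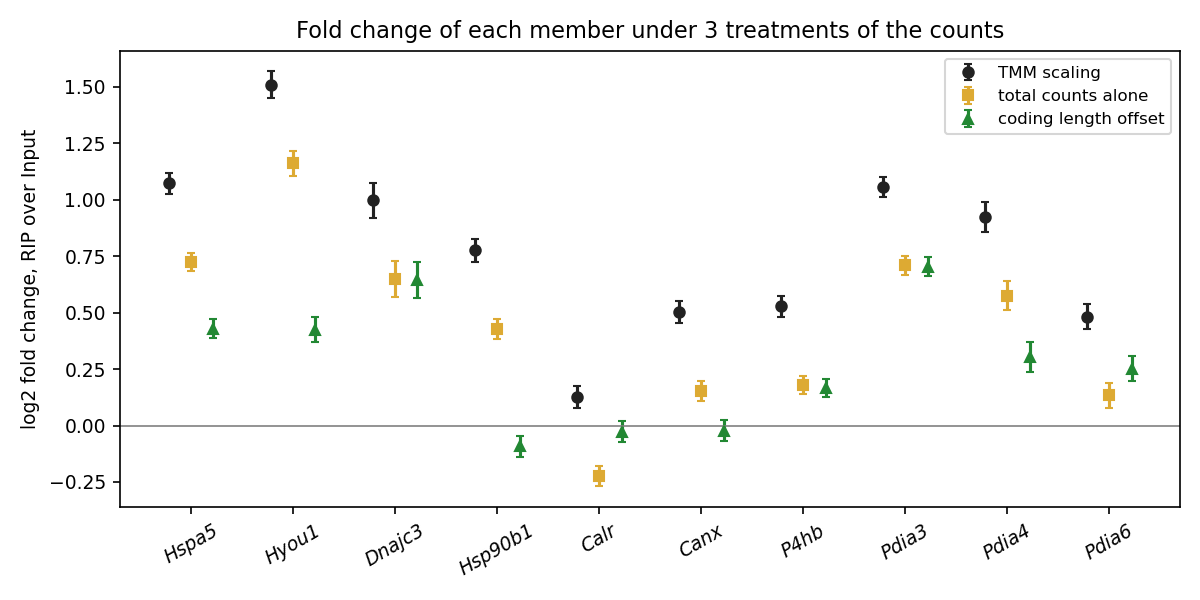
Log2 fold change of each member with TMM scaling, with total counts alone and with an offset for coding length, with bars for 95% limits. Calr falls below 0 with total counts, and Calr, Canx and Hsp90b1 with the offset, while the other 7 stay above 0 in all 3.

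Most relatives of Hspa5, Hsp90b1 and Hyou1 outside the ER also rose with TMM scaling, against 38.7% of all genes tested. Of 13 cytosolic and mitochondrial Hsp70, Hsp90 and Hsp110 genes tested 11 rose, and their median log2 fold change was 0.90; 0 were called lower with TMM scaling, and 2 with total counts alone. With the coding length offset 6 of them rose and 5 fell, with a median of 0.13, against 7 and 1 and a median of 0.28 for the members. The constitutive cytosolic Hsp70 gene Hspa8 rose by 0.32 ± 0.0214 and the mitochondrial Hspa9 by 1.41 ± 0.0251, and Hspa5 lay between them. Of the Hsp90 genes, the cytosolic Hsp90aa1 (0.90 ± 0.0252) and Hsp90ab1 (0.99 ± 0.0205) stood above Hsp90b1, and the mitochondrial Trap1 (0.49 ± 0.0368) below it. Among the Hsp110 relatives of Hyou1, Hsph1 (1.62 ± 0.0380) stood above it and Hspa4 (0.73 ± 0.0269) and Hspa4l (1.04 ± 0.0448) below. Hspa2 (1.08), Hspa1a (0.61) and the rare Hspa1l (1.52) rose as well, and Hspa1b (-0.18) and Hspa14 (-0.022) did not pass the test. Both were called lower with total counts alone (-0.53 and -0.37), with upper-quartile scaling (-0.52 and -0.36) and with the coding length offset (-0.80 and -0.38). Hspa1a and Hspa1b are near-identical copies and their values are uncertain. Hspa1a and Hspa1l each lost their call without input replicate 1 (0.82 and 1.53), input replicate 2 (0.45 and 1.54) or RIP replicate 2 (0.45 and 1.24). Hspa8 stood at -0.029 with total counts alone, at -0.023 with upper-quartile scaling and at -0.31 with the coding length offset. That offset also put Hspa4 at -0.19, Trap1 at -0.24 and Hspa1a at -0.0064. No difference between the members and these relatives was tested.

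Other genes that act beside the members in folding moved both ways, as did all genes tested. Of all genes 38.7% rose and 38.6% fell with TMM scaling, and 28.7% and 50.8% with total counts alone. With the coding length offset 32.1% rose and 41.1% fell. These shares stand beside the counts of each list below. Of 21 other disulfide isomerases and oxidases 6 rose and 11 fell (median -0.22), and with total counts alone 4 rose and 16 fell, or 3 and 14 with the coding length offset. Txndc5 (0.77) and Dnajc10 (0.89), both with thioredoxin domains, rose, though Dnajc10 lost its call with the coding length offset (0.036), and the peroxiredoxin Prdx4 (-1.51) and Erp29 (-1.05) fell. Of 20 genes listed as ER Hsp70 co-chaperones or related proteins, 6 rose and 9 fell (median -0.11), and with total counts alone 2 and 15. The translocation factor Sec63 rose by 0.53 and the J-domain protein Dnajb11 by 0.13, and Manf (-0.89) and Cnpy2 (-1.26) fell. Dnajb11 was at -0.22 by total counts and at -0.21 by the upper quartile, and lost its call without input replicate 2 (0.074). Sec63 stood at -0.27 with the coding length offset.

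Around Calr and Canx, 7 of 11 genes of the lectin cycle rose and 3 fell (median 0.55), or 6 and 5 with total counts alone and 4 and 5 with the coding length offset. The folding sensor Uggt1, which returns unfolded glycoproteins to both chaperones, rose from 171 ± 2.66 to 769 ± 10.1 CPM (log2 fold change 2.17), and the sugar-binding protein Mlec rose by 0.55. The 3 that fell were Selenof (-1.04), a partner of Uggt1, and the homologues Calr4 (-2.11) and Clgn (-0.71), both under 4 CPM. Clgn lost its call without input replicate 1 (-0.47) or RIP replicate 2 (-0.57) and in DESeq2 (-0.69). Next to P4hb, 12 of 20 prolyl isomerases and collagen-modifying genes rose and 6 fell (median 0.42), or 8 and 9 with total counts alone and 7 and 8 with the coding length offset. P4ha2, a catalytic partner of P4hb in collagen hydroxylation, rose by 1.62 and the collagen chaperone Serpinh1 by 0.12, and the prolyl isomerases Ppib (-1.72) and Fkbp2 (-1.47) fell. The value for Serpinh1 was -0.23 by total counts and -0.22 by the upper quartile.

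Downstream of folding, 16 of 24 genes of ER-associated degradation rose and 7 fell (median 0.36), or 11 and 9 with total counts alone. The extraction ATPase Vcp rose by 1.72 and its cofactor Nploc4 by 0.97, and the ubiquitin-conjugating enzyme Ube2j1 (-1.12) and the cofactor Ufd1 (-0.26) fell. Ufd1 lost its call with the coding length offset (-0.032). Among sensors and effectors of the unfolded protein response, 14 of 18 rose and 3 fell (median 0.55), or 9 and 3 with total counts alone and 7 and 7 with the coding length offset, with Creb3l2 at 0.86 and the ATF6 protease Mbtps1 at 0.65. The 3 that fell were the transcription factors Creb3 (-0.67), Xbp1 (-0.57) and Atf4 (-0.11). The call of Atf4 was lost when any single library of the 4 was left out (-0.12 to -0.047) and in DESeq2 (-0.087), and stood at 0.33 with the exonic length offset. Mbtps1 stood at -0.48 with the coding length offset. Over these 6 lists together, TMM scaling gave 61 of 114 genes higher and 39 lower (all genes: 38.7% and 38.6%). Total counts alone gave 40 higher and 57 lower (all genes: 28.7% and 50.8%). The coding length offset gave 39 higher and 53 lower (all genes: 32.1% and 41.1%).

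**Figure D4:**
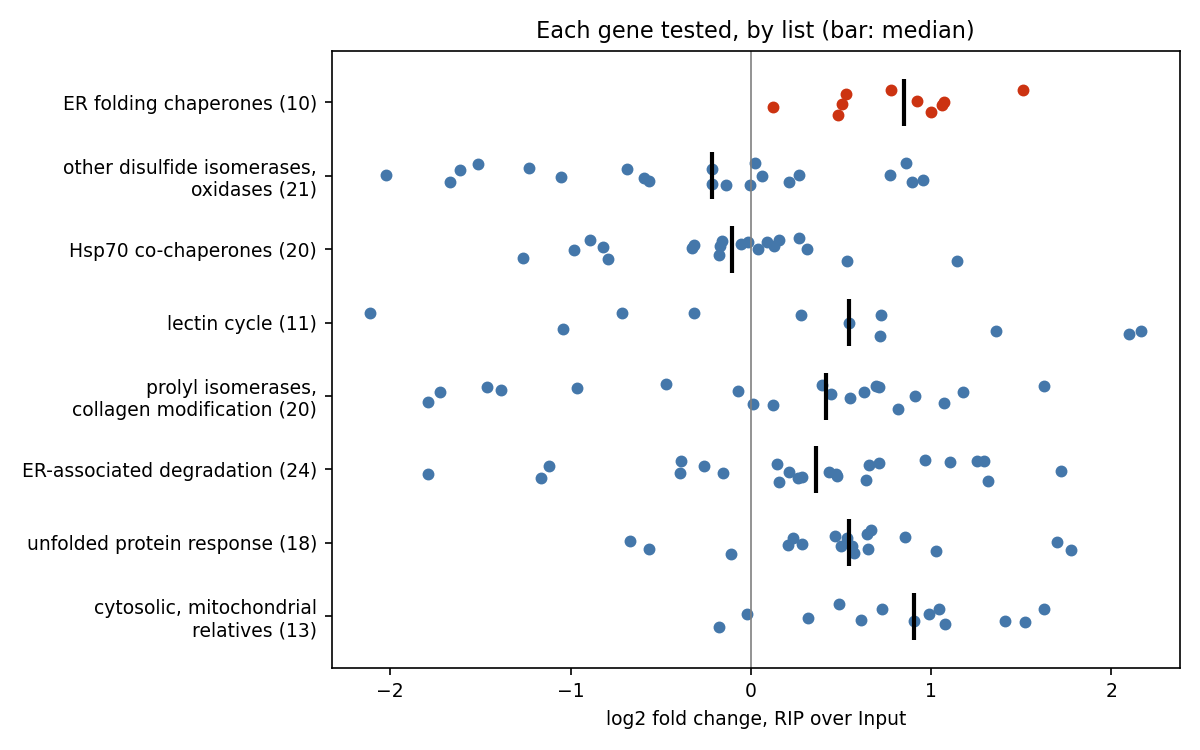
Log2 fold change (RIP over input) of each gene tested, by list, with a bar at each median and the number of genes in parentheses. All 10 ER folding genes lie above 0, with a median of 0.85, the relatives have a median of 0.90, and the lists of other isomerases and of Hsp70 co-chaperones are centred below 0.

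Outside these lists, the genes with at least 100 CPM whose profile over the 4 libraries was nearest to the mean profile of the members were Ildr2, Atp6v1c1 and Tgfbr2. Their distances on centred log2 CPM were 0.018, 0.022 and 0.023, and their log2 fold changes were 0.78, 0.78 and 0.79.

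All 42 marker genes of testis cell types had counts in the input, among them those of Sertoli cells, spermatogonia and Leydig cells. The comparison is RIP with input, so a lower marker is a lower scaled count in the precipitate. It does not measure the number of cells of a type. Of the 42 markers 6 rose and 30 fell with TMM scaling (median -0.92), against 38.7% of all genes higher and 38.6% lower (median -0.05). With total counts alone 1 rose and 35 fell, against 28.7% and 50.8% of all genes. With the coding length offset 1 rose and 39 fell, against 32.1% and 41.1%. The counts by cell type are those with TMM scaling. By cell type, 2 of 8 Sertoli markers rose and 5 fell, 3 of 8 spermatogonia markers rose and 4 fell, all 6 Leydig markers fell, and 4 of 5 macrophage markers fell. Myoid and stromal markers gave 1 higher and 3 lower of 6, endothelial markers 3 lower of 4, and red blood cell markers 5 lower of 5. The sums below are led by single genes, Clu among Sertoli markers (2069 CPM in the input) and Uchl1 among spermatogonia markers (485 CPM), both lower in RIP. With TMM scaling Wt1 (0.70) and Gata4 (0.26) of Sertoli cells and Zbtb16 (0.38), Sall4 (0.39) and Gfra1 (0.35) of spermatogonia rose. Those calls depended on the setting. With total counts alone 1 of 8 Sertoli markers and 0 of 8 spermatogonia markers were called higher, and likewise with the coding length offset. Summed Sertoli markers went from between 3453 and 3481 CPM in the input to between 2163 and 2168 CPM in RIP, and summed spermatogonia markers from between 738 and 741 CPM to between 405 and 409.9 CPM. Leydig markers went from between 314 and 324 CPM to between 146 and 149.6 CPM, and macrophage markers from between 60.8 and 63.7 CPM to between 32.9 and 35.1 CPM. Their part in the members' change was not tested.

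The kit does not mark strand, and 4 members (Hsp90b1, Pdia3, Pdia4 and Pdia6) overlap 6 other annotated genes. Of these 5 are in the count table, and none of the 5 held more than 182 counts in a library. The least abundant of these 4, Pdia4, had between 2956 and 7962 counts per library. Reads that fall in an overlap cannot be assigned to a strand, and the sources used here do not state how the counting treated them.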

How the data were processed

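RNA was measured in 2 input and 2 DDX20 RIP libraries, grouped by their titles. The authors deposited unnormalized whole-number counts for each gene. The submitters' processing notes name the build GRCm38 and the tools featureCounts, SAMtools, STAR 2.7.2b, cutadapt 4.1 and Trimmomatic 0.36, whose order and settings, like the annotation release, were not given in the sources used here. From 65.4% to 67.4% of nonzero counts are even, so each read pair may have been counted 2 times, in which case the counts overstate depth. Symbols and lengths come from GENCODE M21 (GRCm38), which names 52081 (94.1%) identifiers; no member carries the same version number in the table, so counted gene models can differ from those cited. Coding length was read from 1 principal transcript per gene.

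Genes were filtered with filterByExpr, scaled by TMM (factors 0.880 to 1.130) and tested by a robust quasi-likelihood fit (edgeR 4.0.16, R 4.3.3); p-values were adjusted over 17422 genes (Benjamini-Hochberg) at a threshold of 0.05. Each standard error (SE) is the log2 fold change over the root of its F statistic. CPM are scaled by TMM. Replicates differed slightly more than counting noise (median chi-square of halved counts 1.19 and 1.15 times that of noise). The steps were run on simulated data in which few genes changed, which cannot test the choice of scaling in these libraries. Alternatives were other scalings, filters, tools (DESeq2 1.42.0, limma 3.58.1), halved counts, a replicate block, a test against 1.5-fold, each library left out in turn, and smooth offsets (loess, span 0.3) for length. Members, lists and alternatives were chosen with earlier results of these data known. Named genes are all members and relatives, the 2 most abundant called genes of each list and direction, counts of 5 or fewer, and the 3 nearest profiles; marker lists are given as totals, and the markers named beside them were chosen after their values were seen. Of 118 listed ER genes, Ddit3 (2 identifiers), Pdia2, Pdilt and Erp27 were not tested.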

Additional observations from a re-analysis of the deposited data

How the results depend on the processing

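The count of 10 members higher and 0 lower held with RLE scaling, DESeq2, limma-voom, halved counts, the exonic length offset, no low-count filter and without any 1 library. It was 9 and 1 with total counts, upper-quartile scaling and the 10 CPM filter, 7 and 1 with the coding length offset, and 6 and 0 in the test against 1.5-fold, where all genes gave 4210 higher and 4426 lower. Genes of the fixed lists, markers included, numbered 78 higher; 50 with total counts, upper-quartile scaling or the 10 CPM filter, 46 with the coding length offset and 39 against 1.5-fold. Another scaling shifts every gene by about the same amount, and the test against 1.5-fold asks for a larger change; for the offset and the filter the cause was not tested.

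Signs turned as follows. Calr stood at -0.22 with total counts and upper-quartile scaling, -0.19 with the 10 CPM filter and -0.027 with the coding length offset, which put Canx at -0.023 and Hsp90b1 at -0.092. Dnajb11 stood at -0.22 (total counts), -0.21 (upper quartile) and -0.18 (10 CPM), Serpinh1 at -0.23, -0.22 and -0.19, and Hspa8 at -0.029 and -0.023 in the first pair. The coding length offset gave -0.033 for Serpinh1, -0.31 for Hspa8, -0.19 for Hspa4, -0.24 for Trap1, -0.0064 for Hspa1a, -0.27 for Sec63 and -0.48 for Mbtps1; the exonic offset gave -0.16 for Sec63, -0.15 for Mbtps1, 0.33 for Atf4 and 0.085 for Hspa1b. Hspa14, not called with TMM, was called lower with total counts (-0.37), upper-quartile scaling (-0.36), the 10 CPM filter (-0.33) and the coding length offset (-0.38), and stood at 0.00083 with RLE, 0.00094 in DESeq2, 0.032 with no filter, and from -0.090 to 0.072 over the fits without 1 library (0.036 without RIP replicate 2).

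With the replicate number as a block, 10 members and 6734 genes were higher and 6655 lower, and no member changed its call. The labels do not say what the numbers share, and libraries of the same number did not deviate together (r = 0.0037 over 9828 genes). Without any 1 library the all-gene counts ran from 6231 to 6569 higher and from 5071 to 5815 lower.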
